A study of Mus musculus with 576 samples.

Results

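The 32 genes of glucose breakdown and of the cellular response to low oxygen were followed in single cells of the early red cell lineage. They comprised 4 glucose and lactate carriers, 2 hexokinases, 7 genes of upper and 6 of lower glycolysis (before and after the sugar is split), Bpgm, 2 lactate dehydrogenases, 4 regulatory kinases, 5 targets of the hypoxia-inducible factors (HIF) and Hif1a. The members were listed by symbol. Each of the 32 matched 1 row of the 49466 gene rows of the table, and all 32 passed the filter on low counts.

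Fetal livers of C57/Bl6J mice at embryonic day 14.5 were the source of the cells, which were sorted before culture for enrichment in burst forming unit-erythroid (BFU-E), an early progenitor of red cells. The medium of all cultures had erythropoietin (2 U/mL), stem cell factor (100 ng/mL) and IGF-1, an insulin-like growth factor (40 ng/mL). Control cultures without dexamethasone and cultures with the synthetic glucocorticoid dexamethasone at 100 nM were sampled at 24, 48 and 72 hours, called days 1, 2 and 3. Each day and culture has 1 plate of single cells, with 94, 96 and 93 kept cells in control and 94, 92 and 94 with dexamethasone. The labels do not say whether plates came from separate animals or cultures. No day and culture has a repeat plate. The spread behind the p-values is thus how differences change between days and cultures, which may be technical or a true response.

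Glycolysis splits glucose into pyruvate, and lactate dehydrogenase turns pyruvate into lactate, which regenerates the cofactor that keeps the pathway running. HIF is a pair of proteins whose alpha subunit is destroyed while oxygen is plentiful, because prolyl hydroxylases such as the product of Egln3 mark it for the ubiquitin ligase of Vhl. When HIF is stable it raises the transcription of most glycolytic enzymes, of glucose carriers and of genes such as Bnip3, P4ha1 and Ankrd37. Red cells lose their mitochondria as they mature and end up relying on glycolysis, and they use a side branch of it, run by Bpgm, to tune how haemoglobin holds oxygen.

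The cells carried erythroid genes on every plate, but other markers moved with the groups. The summed level of 19 late erythroid genes was 1629, 17380.0 and 29350.0 CPM (counts per 1000000 counts of the plate) on control days 1 to 3, against 1169, 2487 and 9080 with dexamethasone, with 18 or 19 of the 19 detected. The summed level of 14 neutrophil and monocyte markers ran from 3.83 CPM on the control day 2 plate, where 9 of the 14 (Elane, Ctsg and Lyz2 among them) were at 0, to 2151 CPM on the control day 3 plate. Cells with at least 2 of the 5 markers Mpo, Elane, Prtn3, Ctsg and Ms4a3 numbered 43, 0 and 48 in control and 21, 23 and 27 with dexamethasone. Cells that bore CD11b, Ly-6G or CD16/32, proteins of myeloid cells, had been depleted before culture, per the labels. Summed macrophage markers stayed at or below 7.62 CPM, with C1qa, C1qb, C1qc and Cd5l at 0 on every plate, and the 8 hepatocyte markers summed to 62.3 CPM with 5 of 8 detected on the dexamethasone day 2 plate and to 0.835 to 5.77 CPM elsewhere, with Ttr and Serpina1a at 0 on every plate. The 9 mast cell and basophil markers summed to 833 CPM on the dexamethasone day 2 plate and to at most 58.4 CPM elsewhere. In sums over a plate, fewer cells of a type and less RNA per cell cannot be told apart.

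Most of the 32 genes were highest on day 2 in both cultures. This held for 19 of 32 (59.4%), among them Aldoa, Tpi1, Pgk1, Eno1, Pkm, Ldha, Pdk1, Bnip3, P4ha1 and Ankrd37, against 12.8% of the 20040 genes tested. Among genes with a mean of at least 50 CPM it held for 16 of the 24 members and for 11.3% of 4326 genes. Without TMM scaling the same 19 members had this order. Also without TMM scaling, leaving out the cells that had myeloid markers again gave 19, with Egln3 in and Hk1 out. With every cell thinned to 50000 counts, again without TMM scaling, the count was 18, without Bnip3. Lowest on day 3 in both cultures were 18 of 32 members, among them Slc16a1, Hk2, Gapdh and Hif1a, against 14.3% of all genes tested.

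**Figure D1:**
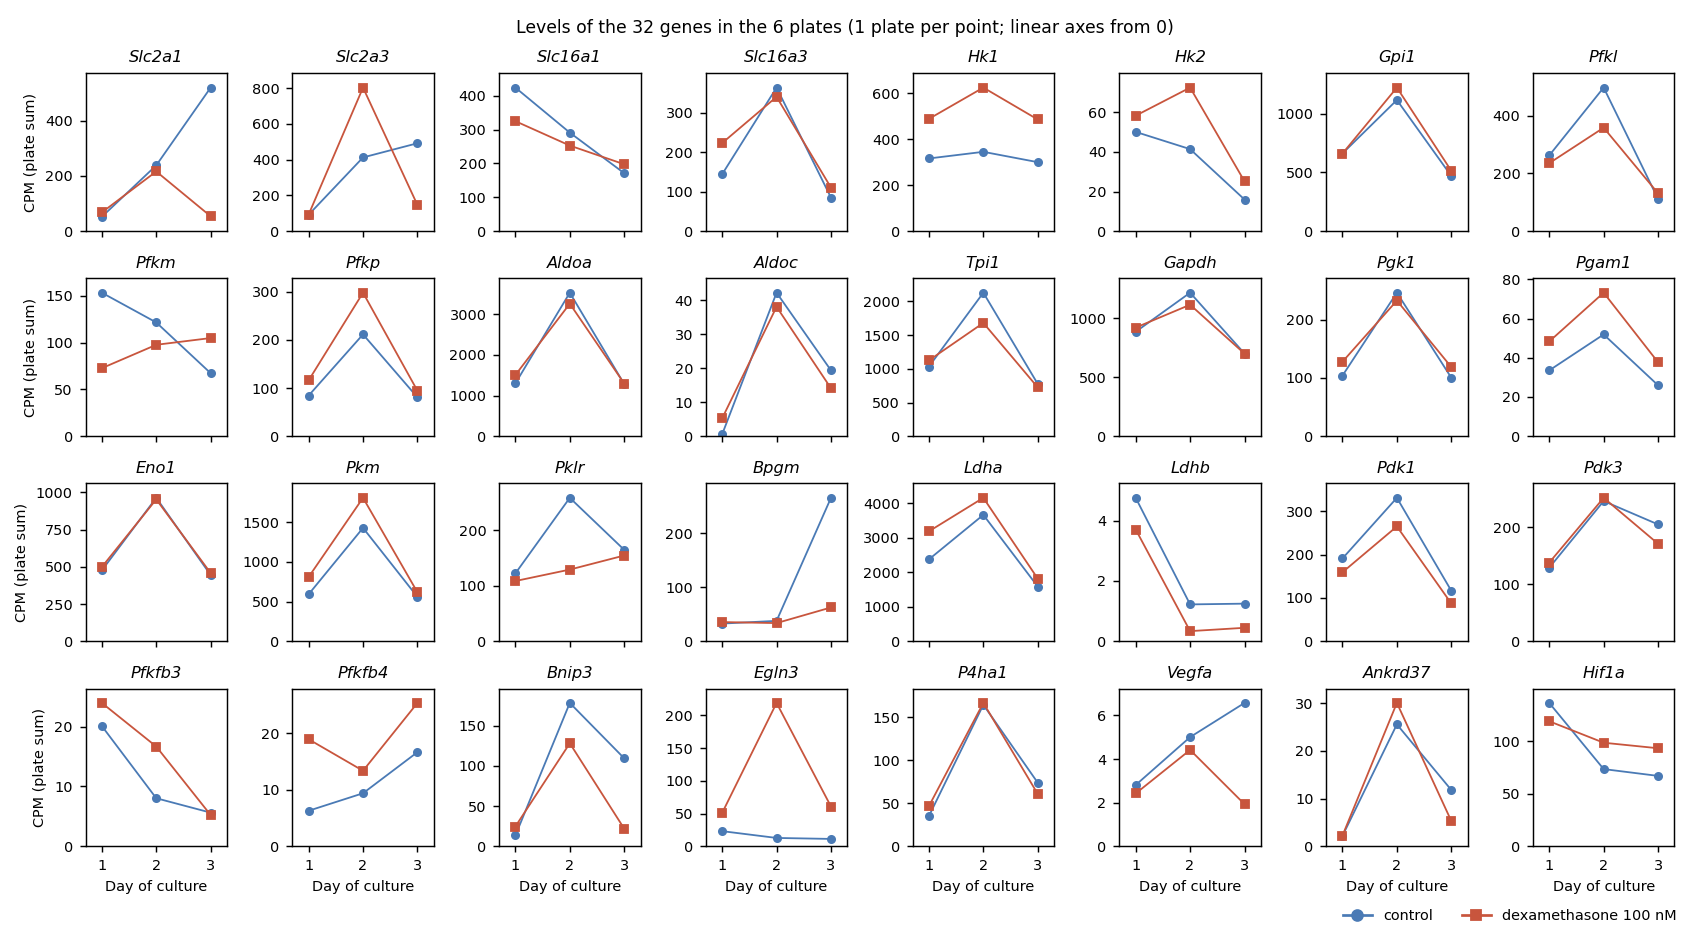
Level of each of the 32 genes in CPM (TMM-scaled sums over the kept cells of a plate, linear axes that start at 0) on days 1, 2 and 3 of culture. Blue circles are control plates and red squares are plates with dexamethasone at 100 nM, 1 plate per point. Most panels peak on day 2 in both cultures, Egln3 and Hk1 lie apart between cultures on every day, and Slc2a1 and Bpgm are highest on the control day 3 plate.

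The test of days used the sums of counts per plate with day and dexamethasone as additive terms, so that the 2 cultures of a day stand in as replicates and 2 residual degrees of freedom remain. With the quasi-likelihood test of edgeR and adjustment over all 20040 genes, in the comparison of day 2 with day 1, 0 genes (0%) reached an adjusted p of 0.05, with 2446 genes at an unadjusted p under 0.05. Of the 32 members, 20 had an unadjusted p under 0.05, and the members' median log2 difference was 0.79 against 0.02 over all genes. Restricted to the 4326 genes with a mean of at least 50 CPM, the same edgeR test called 233 genes (5.39%) and 12 of the 24 members tested, all 12 higher on day 2. DESeq2 called 1550 of 16154 genes (9.6%) and 19 of 32 members, 18 higher and Ldhb lower.

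From day 2 to day 3 most of the 32 genes were lower. The contrast was added after the data were seen. Its median over the members was -1.12 on the log2 scale, against -0.02 over all genes, and 3 of 32 members were positive. edgeR called 0 of 20040 genes (0%), with 1250 genes at an unadjusted p under 0.05, of which 19 were members. Among the 4326 abundant genes edgeR called 6 genes (0.139%), and 5 of these 6 were members that were lower on day 3, namely Slc16a3, Pfkl, Pfkp, Pkm and Pdk1. DESeq2 called 377 genes (2.28%) and 17 members, 16 lower and Bpgm higher.

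**Figure D2:**
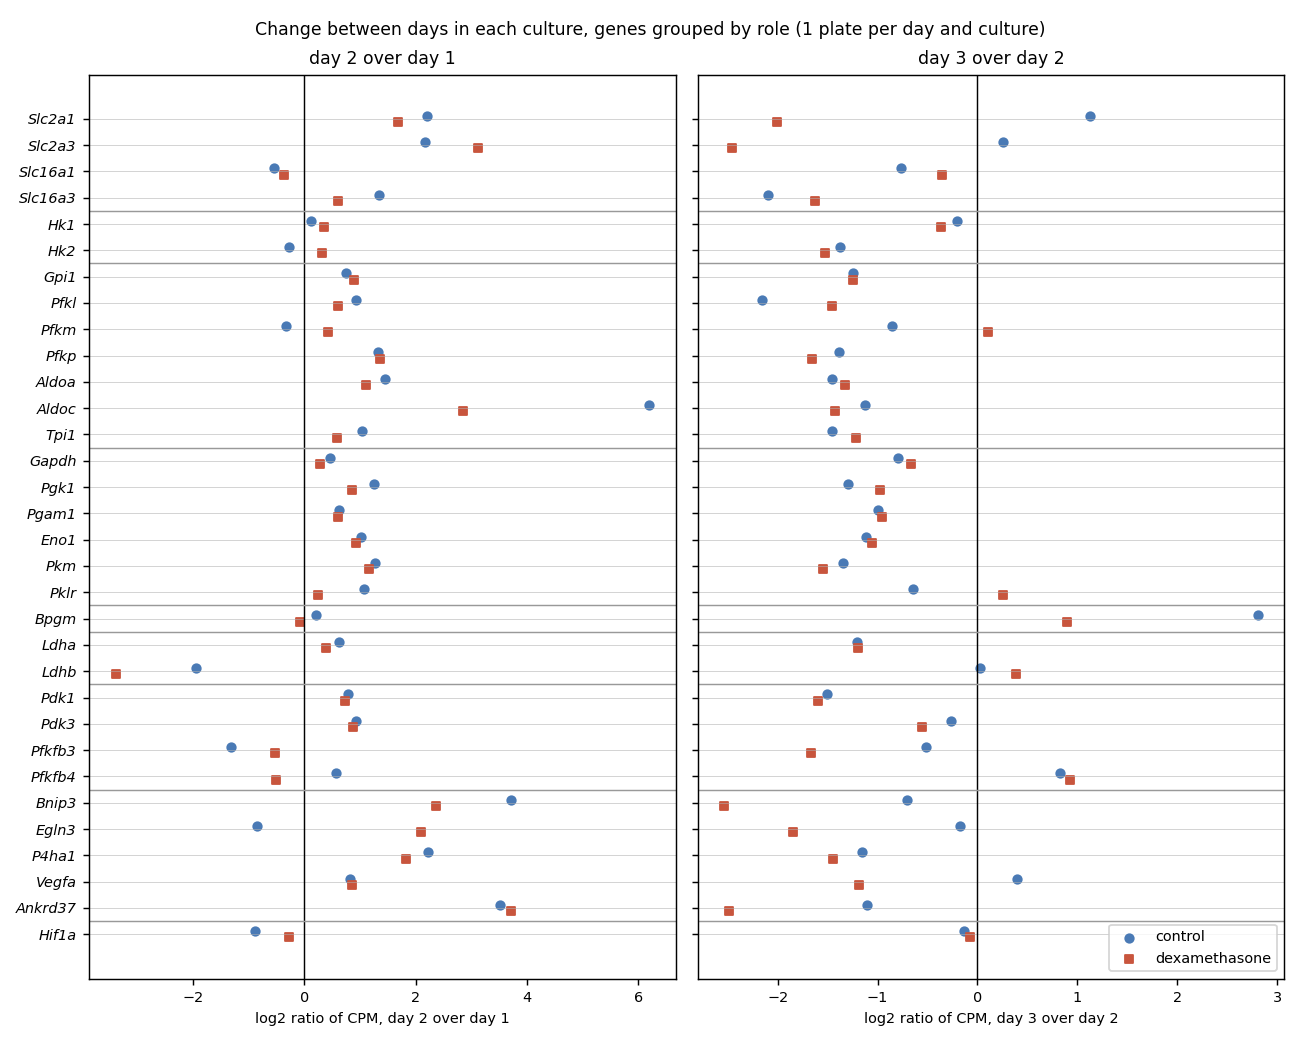
Log2 ratio of CPM between days within each culture for the 32 genes, with day 2 over day 1 on the left and day 3 over day 2 on the right. Blue circles are the control culture, red squares the dexamethasone culture, 1 plate per day and culture, and grey lines separate the roles. The enzymes of upper and lower glycolysis lie right of 0 on the left panel and left of 0 on the right panel, except for Pfkm and Pklr. Bpgm, which is in neither group, lies right of 0 on the right panel in both cultures.

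Day 3 against day 1 gave a mixed picture. edgeR called 0 of 20040 genes (0%), with 2907 genes and 16 of the 32 members at an unadjusted p under 0.05, and 11 members were positive. Among abundant genes edgeR called 545 genes (12.6%) and 5 of 24 members, with Bpgm higher and Slc16a1, Slc16a3, Pfkl and Pdk1 lower. DESeq2 called 2112 of 16543 genes (12.8%) and 13 members, 5 higher (Slc2a3, Aldoc, Bpgm, P4ha1 and Ankrd37) and 8 lower (Slc16a1, Slc16a3, Hk2, Pfkl, Ldha, Ldhb, Pdk1 and Pfkfb3).

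Among the carriers, Slc2a1 and Slc2a3, which encode the glucose transporters GLUT1 and GLUT3, were low on day 1 and high on day 2. Slc2a3 stood at 91.6, 412 and 492 CPM without dexamethasone on days 1 to 3 and 92.3, 803 and 146 CPM with it. Slc2a1 stood at 52, 239 and 521 CPM without dexamethasone and 67.8, 217 and 53.8 CPM with it. The cultures were thus close on day 1 and far apart on day 3, where both carriers were lower with dexamethasone, by a log2 ratio of -3.28 for Slc2a1 and -1.75 for Slc2a3. For Slc2a3, day 2 exceeded day 1 by 2.83 ± 0.57 (SE) on the log2 scale among abundant genes, with an adjusted p of 0.0415 in edgeR. In the fit of all genes it was 2.76, with 1.68 without the dexamethasone day 2 plate and 3.48 without the control day 2 plate. The Slc2a1 difference on control day 3 rested on few cells: 4 of 93 held 50% or more of its counts there, and the cell with the most counts held 20.4% of them. Its median cell stood at 11.3 CPM on that plate, against 140.0 CPM on control day 2.

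The lactate and pyruvate carriers went separate ways. Slc16a1, which encodes the carrier MCT1, was lower on each later day, with 424, 291 and 171 CPM without dexamethasone and 325, 253 and 198 CPM with it. Slc16a3, which encodes MCT4, the carrier of cells that export much lactate, peaked on day 2 with 144, 364 and 84.7 CPM without dexamethasone and 223, 340 and 110 CPM with it. Its drop from day 2 to day 3 was 1.89 on the log2 scale (-1.89 ± 0.21 SE, edgeR on abundant genes, adjusted p = 0.0457), and both cultures showed it.

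Hexokinases trap glucose in the cell as glucose 6-phosphate. Hk1 was the more abundant of the pair per length of transcript on every plate, at 77.9 to 162 CPM per kilobase against 2.89 to 13.2 CPM per kilobase for Hk2. Hk2, the hexokinase that HIF and growth factors induce in many cells, stood at 50.1, 41.4 and 16 CPM without dexamethasone and 58.3, 72.5 and 25.1 CPM with it. At equal depth its counts reached 62.8%, 31.2% and 11.8% of control cells on days 1 to 3 and 64.9%, 71.7% and 35.1% of dexamethasone cells. The day 3 difference from day 1 was -1.44 ± 0.28 (SE) on the log2 scale by DESeq2, with an adjusted p of 1.19e-05, and was not called by edgeR (adjusted p = 0.225).

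In upper glycolysis, Aldoa, the aldolase that cleaves fructose bisphosphate, and Tpi1, which interconverts its products, were the most abundant genes of this group per length. Aldoa stood at 1298, 3526 and 1280.0 CPM without dexamethasone and 1504, 3256 and 1295 CPM with it. Every day 2 plate thus held over 2 times the level of every other plate. The day 2 difference was 1.34 ± 0.18 (SE) on the log2 scale (edgeR, abundant genes, adjusted p = 0.0179), and leaving out any 1 plate in the fit of all genes gave 1.13 to 1.41. Gpi1, which isomerises glucose 6-phosphate, followed the same course with 662, 1118 and 470.2 CPM without dexamethasone and 662, 1224 and 514 CPM with it.

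The 3 phosphofructokinase genes, whose product commits sugar to glycolysis, did not share 1 pattern. Pfkl, the liver form, stood at 262, 497 and 111 CPM without dexamethasone and 235, 358 and 131 CPM with it. Pfkp, the platelet form, stood at 84.3, 212 and 80.8 CPM without dexamethasone and 116, 298 and 94.5 CPM with it. Pfkm, the muscle form, did not peak on day 2 in either culture, with 153, 122 and 67.4 CPM without dexamethasone but 72.8, 97.8 and 105.0 CPM with it. Both Pfkl and Pfkp were called lower on day 3 than on day 2 among abundant genes, by -1.81 ± 0.20 and -1.53 ± 0.18 (SE) on the log2 scale with adjusted p of 0.0457 and 0.0475 in edgeR.

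Aldoc, the brain form of aldolase, was near absent on day 1. It had 50 counts over 94 control cells on day 1, of which 1 cell held 96.0%, and 4547 counts over 96 cells on day 2. Its level was 0.56, 42.2 and 19.3 CPM without dexamethasone and 5.25, 38 and 14.1 CPM with it. It made up at most 0.812% of the aldolase pair per length of transcript, on control day 3. On day 2, 39.1% of dexamethasone cells and 33.3% of control cells had a count at equal depth.

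Lower glycolysis runs from glyceraldehyde phosphate to pyruvate, and 5 of its 6 genes peaked on day 2 in both cultures. Pkm, the pyruvate kinase of proliferating cells, stood at 592, 1429 and 559.6 CPM without dexamethasone and 809.8, 1808 and 618 CPM with it. Eno1, an enolase, was nearly the same in the 2 cultures on each day, with 476, 962 and 445 CPM without dexamethasone and 498, 952 and 458 CPM with it. Gapdh, often used as a reference gene, varied least among them, with 886, 1217 and 701 CPM without dexamethasone and 921, 1115 and 700.3 CPM with it. Pgk1 and Pgam1 had the same shape at lower levels, 100.3 to 246 CPM and 26 to 73.2 CPM. Glycolytic genes such as Gapdh, Pgk1, Pgam1, Tpi1, Eno1, Ldha and Aldoa have many processed pseudogenes. How reads that map to several places were counted is not given in the sources used here, so their levels are uncertain.

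Pklr, the pyruvate kinase of mature red cells and liver, was the exception in lower glycolysis. It stood at 122, 258 and 165 CPM without dexamethasone and 109, 129 and 154 CPM with it, with its highest control plate on day 2 and its highest dexamethasone plate on day 3. Across cells of a plate its level ran with the summed late erythroid genes on day 1, with a Spearman rho of 0.80 over 94 control cells and 0.76 over 94 dexamethasone cells. On days 2 and 3 rho was 0.17 and -0.12 over control cells and 0.48 and 0.56 over dexamethasone cells.

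Bpgm, which makes the 2,3-bisphosphoglycerate that loosens the grip of haemoglobin on oxygen, had its own course. It stood at 32.9, 38 and 266 CPM without dexamethasone and 35.7, 33.8 and 62.8 CPM with it. Days 1 and 2 did not separate, and day 3 was above both in each culture. The day 3 difference from day 1 was 2.07 ± 0.52 (SE) on the log2 scale (edgeR, abundant genes, adjusted p = 0.0464). In the fit of all genes it was 2.02, and it depended on single plates, with 0.88 without control day 3, 1.36 without control day 1, 2.61 without dexamethasone day 1 and 2.95 without dexamethasone day 3. On control day 3, 6 of 93 cells held 50% or more of its counts and 55.9% of cells had a count at equal depth, against 68.1% on dexamethasone day 3. The summed late erythroid genes were also highest on control day 3, and their part in the Bpgm difference was not tested.

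Of the lactate dehydrogenases, Ldha was the most abundant of the 32 genes per length on 5 of the 6 plates (Aldoa was above it on control day 2), and Ldhb was barely present. Ldha stood at 2370.0, 3657 and 1583 CPM without dexamethasone and 3181, 4150.0 and 1813 CPM with it. Ldhb, which favours the reverse reaction from lactate to pyruvate, ran from 0.34 to 4.76 CPM and made up at most 0.271% of the pair per length. At equal depth a count of Ldhb was found in at most 8.51% of the cells of a plate.

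The 4 regulatory kinases steer pyruvate and fructose phosphate. Pdk1 and Pdk3 encode kinases that switch off pyruvate dehydrogenase and so keep pyruvate out of the mitochondria. Pdk1, a HIF target, stood at 191, 331 and 116.5 CPM without dexamethasone and 159, 265 and 87.2 CPM with it. Its difference between days 3 and 2 was -1.57 ± 0.17 (SE) on the log2 scale (edgeR, abundant genes, adjusted p = 0.0457). Pdk3 stood at 129, 246 and 205 CPM without dexamethasone and 138, 251 and 171 CPM with it, so it kept more of its day 2 level. Pfkfb3 and Pfkfb4 encode enzymes that make or remove the activator of phosphofructokinase, and both were low, at 5.24 to 23.9 CPM and 6.31 to 25.4 CPM.

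The 5 HIF targets had the highest median day 2 difference of any role, a log2 difference of 2.02. The 4 glucose and lactate carriers came next with 1.41, against 0.82 and 0.83 in upper and lower glycolysis. P4ha1, a subunit of the prolyl hydroxylase of collagen, stood at 35.3, 165 and 74 CPM without dexamethasone and 46.8, 167 and 61 CPM with it. Bnip3, which encodes a receptor that targets mitochondria for removal, stood at 13.6, 178 and 109 CPM without dexamethasone and 24.7, 128 and 22.1 CPM with it. Ankrd37, a small ankyrin repeat gene that HIF induces directly, stood at 2.21, 25.6 and 11.8 CPM without dexamethasone and 2.27, 30.04 and 5.33 CPM with it. For these 3 genes both day 2 plates were above the other 4 plates. The day 2 difference of P4ha1 was 2.08 ± 0.23 (SE) on the log2 scale (edgeR, abundant genes, adjusted p = 0.0122), and that of Ankrd37 was 3.65 ± 0.49 by DESeq2 (adjusted p = 6.03e-11). Vegfa, the vascular growth factor, was at most 6.57 CPM and had a count in at most 17.4% of the cells of a plate at equal depth.

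Hif1a itself, which encodes an alpha subunit, did not share this peak. It stood at 136, 73.5 and 67 CPM without dexamethasone and 119, 98.5 and 93.3 CPM with it, highest on day 1 in both cultures. Its day 2 difference from day 1 was -0.60 ± 0.23 (SE) on the log2 scale with an adjusted p of 0.42 in edgeR. HIF alpha is controlled mainly at the level of protein, which these data do not hold.

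Promoters of 4 of the 5 HIF targets are shown because HIF is known to bind a short core, ACGTG or GCGTG. Ankrd37, Bnip3 and P4ha1 peaked on day 2 in both cultures, and Egln3 differed most between cultures and did not peak on day 2 in control. RefSeq windows of GRCm38.p6, from 250 bases before to 50 after a start, were available for 31 of the 32 members (46 windows). Both strands were searched, capitals mark each match (CACGT and CACGC are the 2 cores read on the other strand), and matches may overlap each other or the E-box CACGTG. The windows are those of Ankrd37 (chr8:45999801-46000100, minus strand), Bnip3 (chr7:138909457-138909756, minus strand), P4ha1 (chr10:59323046-59323345, plus strand) and Egln3 (chr12:54203825-54204124, minus strand), printed 5′ to 3′ on the strand of the gene.
Ankrd37: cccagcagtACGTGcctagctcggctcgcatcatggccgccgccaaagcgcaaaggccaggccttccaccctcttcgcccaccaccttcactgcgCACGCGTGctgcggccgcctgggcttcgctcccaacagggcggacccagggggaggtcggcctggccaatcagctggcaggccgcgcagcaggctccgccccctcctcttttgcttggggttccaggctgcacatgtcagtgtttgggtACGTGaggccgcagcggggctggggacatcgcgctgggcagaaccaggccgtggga
Bnip3: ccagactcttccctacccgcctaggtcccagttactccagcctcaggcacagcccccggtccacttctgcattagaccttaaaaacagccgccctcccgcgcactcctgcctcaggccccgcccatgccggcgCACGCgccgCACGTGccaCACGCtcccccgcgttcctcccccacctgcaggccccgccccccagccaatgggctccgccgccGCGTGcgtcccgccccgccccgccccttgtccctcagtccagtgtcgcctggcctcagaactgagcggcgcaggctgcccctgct
P4ha1: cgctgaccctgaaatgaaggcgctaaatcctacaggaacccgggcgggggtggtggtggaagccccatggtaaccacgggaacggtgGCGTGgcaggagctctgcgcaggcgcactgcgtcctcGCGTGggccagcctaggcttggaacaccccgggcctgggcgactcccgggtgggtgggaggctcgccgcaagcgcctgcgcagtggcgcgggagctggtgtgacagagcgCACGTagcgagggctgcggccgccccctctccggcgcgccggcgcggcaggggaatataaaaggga
Egln3: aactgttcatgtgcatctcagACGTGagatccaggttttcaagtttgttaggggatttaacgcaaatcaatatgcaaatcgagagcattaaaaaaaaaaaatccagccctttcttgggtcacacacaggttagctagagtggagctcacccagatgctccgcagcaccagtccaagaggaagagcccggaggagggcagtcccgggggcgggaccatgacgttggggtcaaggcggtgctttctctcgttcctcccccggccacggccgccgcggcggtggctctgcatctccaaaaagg

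A core ACGTG on either strand was present in at least 1 window of 21 of 31 members (67.7%), against 33.9% of 3453 genes with a mean of at least 50 CPM and a window, and 21.8% of all 27025 gene symbols. GCGTG was present for 20 members (64.5%), against 61% and 35.2%. The E-box CACGTG, which holds ACGTG, was present for 6 members (19.4%), against 14.6% and 8.09%. Per window, ACGTG was found in 24 of 46 windows of members and in 19.6% of all 32851 windows. Windows of Bpgm, Gpi1, Pklr and Tpi1 held neither core. ACGTG was matched 2 times in the window of Ankrd37, at separate sites, and 1 time in those of P4ha1 and Egln3. In the window of Bnip3 it was matched 2 times, but both matches are the strands of 1 CACGTG. A match of letters is a description and no binding was measured.

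The 32 genes differed from control in both directions with dexamethasone. With day as the other term, edgeR called 0 of 20040 genes (0%), with 2070 genes and 8 members at an unadjusted p under 0.05. The members' median log2 difference was 0.04 against 0.07 over all genes, with 17 of 32 positive. Among abundant genes edgeR called 38 genes (0.878%) and 1 of 24 members, Hk1. DESeq2 called 1279 of 16543 genes (7.73%) and 2 members, Hk1 and Egln3. These were also the only 2 members whose 3 dexamethasone plates all lay above the 3 control plates, an order found for 7.13% of all genes tested. No member had the reverse order, against 5.44% of all genes tested.

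**Figure D3:**
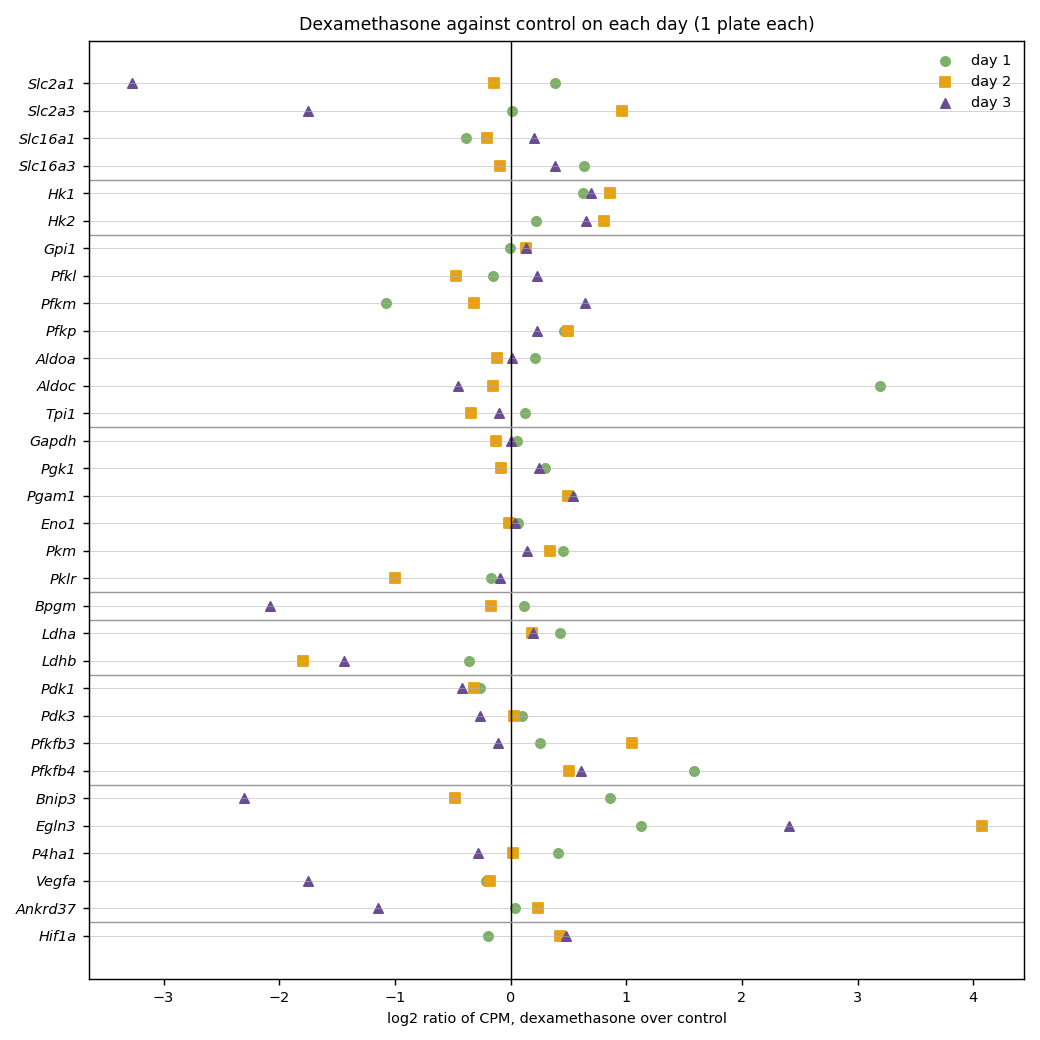
Log2 ratio of CPM, dexamethasone over control, on day 1 (green circles), day 2 (yellow squares) and day 3 (purple triangles) for the 32 genes, 1 plate per culture and day. Points lie on both sides of 0, Egln3 and Hk1 lie right of it on each day, and Slc2a1, Slc2a3, Bpgm and Bnip3 lie far left of it on day 3.

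Egln3 showed the largest difference between cultures. It encodes a prolyl hydroxylase, itself a HIF target that acts back on HIF, and lies at chr12:54178981-54203860 on the minus strand of GRCm38. It stood at 23.3, 13 and 11.5 CPM without dexamethasone and 51.1, 219 and 60.8 CPM with it, so the lowest dexamethasone plate held over 2 times the highest control plate. The daily log2 ratios were 1.13, 4.07 and 2.4. The difference over the days was 2.53 ± 0.66 (SE) on the log2 scale in edgeR with an adjusted p of 0.457, 2.59 ± 0.54 among abundant genes (adjusted p = 0.0768) and 2.50 ± 0.49 by DESeq2 (adjusted p = 3.93e-05). Only the DESeq2 value passed 0.05. The edgeR value of all genes was 1.76 without control day 2, 1.77 without dexamethasone day 2, 3.22 without control day 1 and 3.24 without dexamethasone day 1.

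Egln3 had a count in few control cells and in most dexamethasone cells. With each cell thinned to 50000 counts, a count was found in 18.1% (95% Clopper-Pearson interval 10.9 to 27.4), 15.6% (9.02 to 24.5) and 4.30% (1.18 to 10.7) of control cells on days 1 to 3. With dexamethasone the shares were 63.8% (53.3 to 73.5), 90.2% (82.2 to 95.4) and 67% (56.6 to 76.4). The intervals cover the sampling of cells within a plate only, not differences between plates or between random thinnings. Without thinning the shares were 24.5%, 21.9% and 16.1% in control and 86.2%, 98.9% and 83% with dexamethasone. The median control cell had no count of Egln3 on any day, and the median dexamethasone cell stood at 40.9, 201 and 47.8 CPM.

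Within the control plates Egln3 moved with myeloid markers. On control day 1 it had a count in 19 of 43 cells with at least 2 myeloid markers (44.2%) and in 4 of the other 51 (7.84%). On control day 3 the numbers were 13 of 48 (27.1%) and 2 of 45 (4.44%), and the control day 2 plate, with 0 cells that had 2 myeloid markers, had a count in 21 of 96. With dexamethasone both kinds of cells had it, 20 of 21 against 61 of 73 on day 1, 23 of 23 against 68 of 69 on day 2 and 25 of 27 against 53 of 67 on day 3. Without the cells that had myeloid markers the difference over the days was 5.36 on the log2 scale with an adjusted p of 0.399 in edgeR, against 2.53 with all cells. It is set against a control day 3 plate near 0, at 0.0916 CPM before TMM scaling from 2 of 45 cells, so its size is poorly determined. On control day 3, 1 cell held 59.1% of the Egln3 counts. Without the largest cell of each plate the daily log2 ratios were 1.5, 4.37 and 3.66. Across control cells Egln3 also ran with Kit, an early progenitor marker, with Spearman rho of 0.36, 0.41 and 0.29 on days 1 to 3. Across dexamethasone cells these values were -0.06, 0.11 and 0.30. There Egln3 had a rho of -0.23, -0.25 and -0.39 with the late erythroid sum. Summed Kit was higher with dexamethasone on each day, and its link to the Egln3 difference was not tested.

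**Figure D4:**
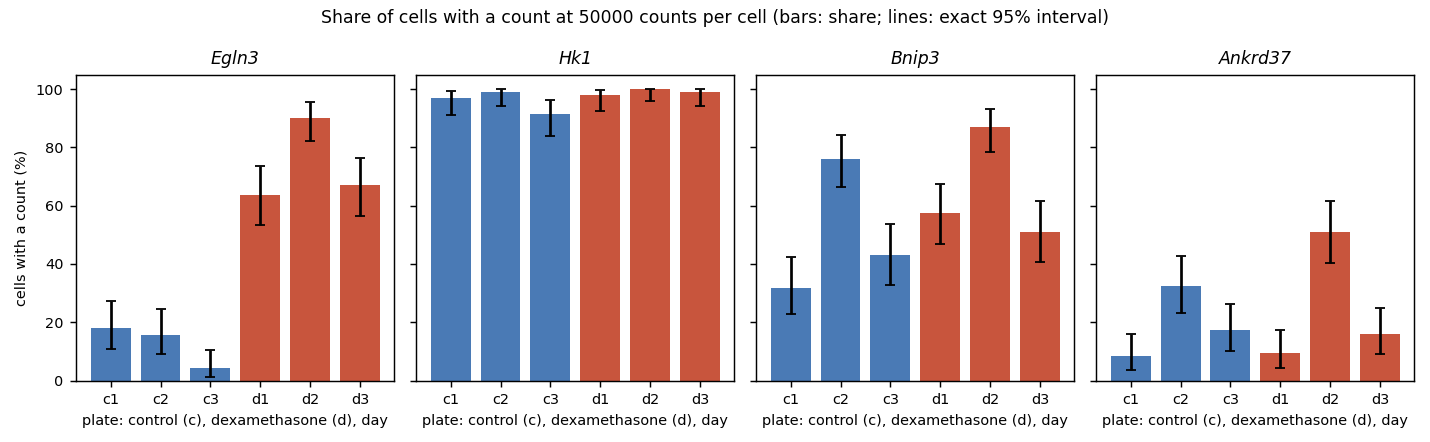
Share of cells with a count of Egln3, Hk1, Bnip3 and Ankrd37 on each plate, with every cell thinned to 50000 counts. Bars are shares in percent from 0, lines are exact 95% intervals, and plates are control (c1 to c3, blue) and dexamethasone (d1 to d3, red) on days 1 to 3. Egln3 was in 4.30% to 18.1% of control cells and 63.8% to 90.2% of dexamethasone cells, Hk1 in over 91% of the cells of every plate, and Bnip3 and Ankrd37 peak on day 2 in both cultures.

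Hk1 (chr10:62268855-62379908, minus strand) was found in nearly all cells, and its amount per cell differed between cultures. It stood at 316, 345 and 300.1 CPM without dexamethasone and 489, 625 and 486 CPM with it, and at equal depth at least 91.4% of the cells of every plate had a count. The median cell stood at 312, 313 and 285 CPM without dexamethasone and 482, 603 and 502 CPM with it. Hk1 was higher with dexamethasone by 0.80 ± 0.12 (SE) on the log2 scale among abundant genes (edgeR, adjusted p = 0.0463) and by 0.70 ± 0.15 by DESeq2 (adjusted p = 0.000126). In the fit of all genes it was 0.73 ± 0.11 with an adjusted p of 0.457, and leaving out any 1 plate gave 0.66 to 0.78. In cells with fewer than 2 myeloid markers it stood at 369, 329 and 342 CPM without dexamethasone and 540, 655 and 508 CPM with it, in both cases before TMM scaling, so every dexamethasone plate was above every control plate there too.

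Of the other members, 6 were higher with dexamethasone on each of the 3 days, but none was called. They were Hk2, Pfkp, Pgam1, Pkm, Ldha and Pfkfb4. Together with Egln3 and Hk1 that makes 8 of 32 (25%), against 19.1% of all genes tested. The count depends on how plates are scaled and cells are chosen. Without TMM scaling it was 12. Also without TMM scaling, it was 15 when cells that had myeloid markers were left out, and 15 with thinned cells. Pgam1, which moves the phosphate on phosphoglycerate, was the steadiest of them, with daily log2 ratios of 0.52, 0.50 and 0.54 and a difference of 0.52 ± 0.13 (SE, edgeR, adjusted p = 0.457). Pdk1 was lower on each day, with log2 ratios of -0.26, -0.32 and -0.42, as were Ldhb, Pklr and Vegfa, 4 of 32 (12.5%) against 15.5% of all genes tested. Without TMM scaling the same 4 were lower on each day. With thinned cells, also without TMM scaling, only Pdk1 of these 4 was.

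On day 3 alone, 4 genes with a mean of at least 50 CPM were far below control with dexamethasone. The log2 ratios were -3.28 for Slc2a1, -2.31 for Bnip3, -2.08 for Bpgm and -1.75 for Slc2a3, each from 1 plate per culture with no test. For 3 of them few control cells held most of the counts. For Bnip3, 2 of 93 control cells held 50% or more of the counts and 1 cell held 42.2%, and without the largest cell of each plate the log2 ratio was -1.53. Without it the ratio was -3.22 for Slc2a1, -1.93 for Bpgm and -1.62 for Slc2a3, close to the values with it. For Slc2a3, 10 of 93 control cells held 50% or more of the counts, against 6 of 93 for Bpgm. At equal depth Slc2a3 had a count in 80.65% of control cells on day 3, against 55.9% for Bpgm. Without thinning these were 93 and 90 of 93 cells. The median control cell on day 3 stood at 11.3 CPM for Slc2a1, 1.73 CPM for Bnip3 and 21.1 CPM for Bpgm, below the median dexamethasone cell at 27.4, 19.99 and 49.9 CPM. For these 3 genes the sum over the plate and the median cell pointed in opposite directions. For Slc2a3 they did not, with medians of 166 CPM in control and 113 CPM with dexamethasone.

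Isozyme use was compared as the share of each gene in its family, in counts per length of the principal transcript, with an exact two-sided sign-flip permutation test over the 3 days that cannot go below 0.25. The share of Pklr in the pair with Pkm was 14.7%, 13.2% and 19.8% on control days 1 to 3 and 10.1%, 5.65% and 17.3% on the dexamethasone days, lower on 3 of 3 days by 4.87 ± 2.53 percentage points (-4.87, SD, n = 3, exact p = 0.25). The share of Pdk1 in the pair with Pdk3 was 37.7%, 35.4% and 18.8% on control days 1 to 3 and 32.0%, 30.1% and 17.2% on the dexamethasone days, also lower on each day (-4.21 ± 2.26, SD, n = 3, exact p = 0.25). Slc16a3 took 25.7%, 56% and 33.5% of the pair with Slc16a1 in control and 41.2%, 57.9% and 36.3% with dexamethasone, so day 2 had the largest share of this carrier in both cultures. Slc2a3 took 43.7% of the glucose carrier pair on control day 3 and 69.1% on dexamethasone day 3, and on day 1 the order was reversed at 59.2% and 52.9%.

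The phosphofructokinases also shifted in mix between days. Pfkl made up 48.8%, 58.8% and 41% of the 3 genes in control and 54.2%, 47.5% and 37.2% with dexamethasone. Pfkp made up 14.2%, 22.5% and 26.8% in control and 24.1%, 35.6% and 24.2% with dexamethasone. Pfkm was lowest on day 2 in both cultures, at 18.7% and 16.8%, while on day 3 it made up 32.2% and 38.7%. No difference between cultures kept its sign over the 3 days for any of these 3 genes.

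Across the cells of a plate, the abundant enzymes varied against erythroid genes in control and on dexamethasone day 3. The sum of the 8 genes of both glycolysis groups and the lactate dehydrogenases found in at least 80% of the cells of every plate at equal depth (Gpi1, Aldoa, Tpi1, Gapdh, Pgk1, Eno1, Pkm and Ldha) had a median of 7580, 12870 and 4940 CPM per control cell on days 1 to 3. With dexamethasone the medians were 8910, 14920 and 5830 CPM. The spread between cells was widest on control day 2, where the quartiles were 6905 and 17610.0 CPM. In control the Spearman rho with the sum of 19 late erythroid genes was -0.25, -0.60 and -0.80 on days 1 to 3 (94, 96 and 93 cells), and with dexamethasone it was 0.07, 0.01 and -0.70 (94, 92 and 94 cells). Cells of a plate share their library preparation, and the enzyme sum also ran with the total counts of the cell, with rho from 0.07 to 0.48 over the plates.

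Cells of a plate were ranked by erythroid counts and split into 3 equal parts. On control day 3 the median enzyme sum was 1960.0 CPM in the 31 cells with the most erythroid counts and 8020.0 CPM in the 31 with the fewest. On control day 2 these values were 4680.0 and 16240.0 CPM (32 cells each). On dexamethasone day 2 (30 cells each) they were 15200 and 15210 CPM, with far less spread in the erythroid sum (medians of 4380 and 1510 CPM in the upper and lower part). Ldha followed this most closely of the enzymes on control day 3, with rho of -0.85, while Bpgm and Slc2a1 had the opposite sign there, with rho of 0.46 and 0.47. Cells with at least 2 myeloid markers numbered 43 of 94, 0 of 96 and 48 of 93 on control days 1 to 3. Neither the 3 parts nor the rho values were split by these markers, so cells with few erythroid counts may include other cell types.

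**Figure D5:**
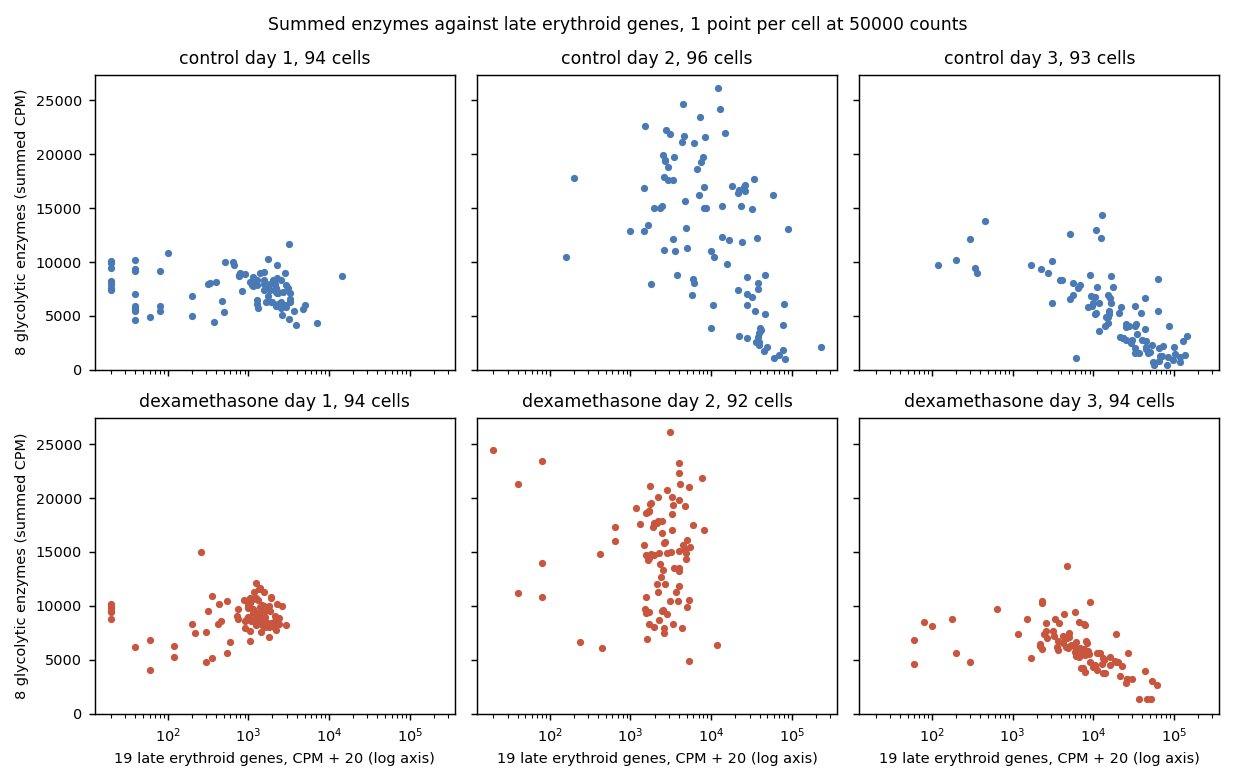
Summed CPM of 8 glycolytic enzymes (linear axis from 0) against the summed CPM of 19 late erythroid genes plus 20 (log axis), 1 point per cell at 50000 counts, for the 3 control plates (top, blue) and the 3 dexamethasone plates (bottom, red). Cells with more erythroid counts have lower enzyme sums on control days 2 and 3 and on dexamethasone day 3, where rho is -0.60, -0.80 and -0.70.

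The 3 hypoxia targets named above ran with the enzymes across the cells of the day 2 plates. The sum of Bnip3, P4ha1 and Ankrd37 had a median of 40.0, 260.0 and 60 CPM per control cell on days 1 to 3 and 60, 310.0 and 60 CPM with dexamethasone, where 1 count equals 20 CPM. Its Spearman rho with the enzyme sum was 0.58 over 96 control cells and 0.67 over 92 dexamethasone cells on day 2, and between -0.07 and 0.16 on the other 4 plates. Between single genes on day 2, Bnip3 and Aldoa had a rho of 0.71 in control and 0.61 with dexamethasone. Over Aldoa, Ldha, Pkm and Pgk1, rho ran from 0.32 to 0.71 for Bnip3 in control and from 0.48 to 0.61 with dexamethasone. For P4ha1 it ran from 0.13 to 0.43 in control and from 0.30 to 0.45 with dexamethasone. The 3 targets showed little relation to the late erythroid sum, with rho from -0.08 to 0.23 over the 6 plates. The enzyme sum differed from them in this on control days 2 and 3 and dexamethasone day 3, with rho of -0.60, -0.80 and -0.70. On dexamethasone days 1 and 2 it too showed little relation, with rho of 0.07 and 0.01. In sparse counts a low rho says little.

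Other genes of these pathways came from 4 further lists of glycolysis and its neighbours, the pentose phosphate pathway, the HIF machinery and further HIF targets. None of their members was called by edgeR in the fit of all genes. Among abundant genes edgeR called Hif3a higher and Tfrc lower with dexamethasone, where 0.878% of all were called, and on day 2 it called 3 of 5 further HIF targets and 1 of 9 genes of wider glycolysis, all higher, where 5.39% of all abundant genes were called. For day 2 against day 1 the median log2 difference was 0.28 over 33 tested genes of wider glycolysis (19 positive), 0.24 over 7 pentose phosphate genes (5 positive), -0.16 over 12 genes of the HIF machinery (5 positive) and 0.83 over 26 further HIF targets (19 positive), against 0.02 over all genes. The further HIF targets were thus near the 0.79 of the 32 members, and the HIF machinery was not.

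With dexamethasone the largest steady differences in these lists were of Hif3a, Pygl and Cited2 above control, and of Tfrc, Pck2 and Hmox1 below it. Hif3a, a HIF alpha relative with inhibitory forms, stood at 85.7, 61.4 and 49.3 CPM without dexamethasone and 189, 108 and 161 CPM with it. It was called higher among abundant genes (1.29 ± 0.21 SE on the log2 scale, edgeR, adjusted p = 0.0494). Tfrc, the transferrin receptor, the erythroid surface marker CD71, stood at 1337, 3905 and 5180.0 CPM without dexamethasone and 753, 1429 and 1591 CPM with it (-1.26 ± 0.20 SE, edgeR, adjusted p = 0.0463). Cited2, which competes with HIF for its coactivator, stood at 10.9, 15.2 and 6.01 CPM without dexamethasone and 16.9, 36.3 and 18.6 CPM with it, an edgeR difference of 1.18 ± 0.29 (SE) on the log2 scale with an adjusted p of 0.457.

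Of day 3 against day 1, Hmox1, Tfrc and Taldo1 were highest above day 1 in both cultures, with a log2 ratio in the culture with the smaller change of 2.36, 1.08 and 1.03, and Ak4, Angptl4 and Gbe1 were furthest below it, with -1.23, -0.91 and -0.74. Bnip3l, the relative of Bnip3 that clears mitochondria in maturing red cells, stood at 118, 232 and 436 CPM without dexamethasone and 96.6, 185 and 177 CPM with it. At equal depth it had a count in at least 87.2% of the cells of every plate, where Bnip3 ranged from 31.9% to 87%. Of the HIF machinery, Vhl was level, at 20.1 to 25.2 CPM. Egln1, the main oxygen sensor of most cells, was low, at 3.25 to 17.3 CPM. In sums over a plate and per length of transcript, it was below Egln3 on every plate. On control days 1 and 3 Egln3 stood at 51.5 and 20.7 CPM in cells with at least 2 myeloid markers. In the other cells Egln3 stood at 1.88 and 0.0916 CPM, in both cases before TMM scaling. Egln1 was not split by these markers. Epas1, which encodes HIF2 alpha, had 57 counts on control day 2, 1 on control day 3 and 0 on the other 4 plates.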

How the data were processed

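RNA of single cells was measured on 6 plates of 96 wells. Reads were aligned to GRCm38 with STAR 2.4 and counted with featureCounts by the authors, per the submitters' processing notes; what annotation release and strand setting they used, and how they treated multi-mapped reads, is not given in the sources used here, and no molecular identifiers are stated. The deposited values are whole-number read counts per gene and cell. Intervals on shares of cells cover the sampling of cells of a plate only. Of 576 value columns 575 were used, and 1 matched none of the samples used here. The header row holds 1 empty cell more than the gene rows account for, which was skipped. In this reading Mt2, Fkbp5, Per1 and Tsc22d3, genes that glucocorticoids induce, were higher on every dexamethasone plate than on any control plate, and in the reading shifted by 1 column they were not.

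Cells with at least 50000 counts, 1500 genes and at most 20% mitochondrial counts were kept, which left 563 and removed 12. Kept cells held 66140 to 3757116 counts (median 1092431). No doublet caller was run. Counts were summed per plate, filtered with filterByExpr, scaled by TMM and tested with edgeR 4.0.16 (quasi-likelihood, day and dexamethasone as terms, Benjamini-Hochberg threshold 0.05), with DESeq2 1.42.0 as an alternative. The edgeR step was run on simulated data with no day effect and the same dexamethasone difference on each day. That run thus does not cover differences that change between days. Daily ratios used a prior count of 2. Shares of cells used each cell thinned to 50000 counts. Transcript lengths and gene positions came from GENCODE (GRCm38), and promoters from RefSeq. The members and all lists were chosen with earlier results of these data known. The text names every member, and of the further lists Bnip3l, Vhl, Egln1, Epas1 and, per direction, the 3 genes of at least 10 CPM whose smallest log2 ratio of one sign over the days (or cultures) was largest in size.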

Additional observations from a re-analysis of the deposited data

Results flagged for a closer look

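For 5 of the 32 genes, day 3 lay on opposite sides of day 1 in the 2 cultures. The share of all genes tested that did so was not counted, so 5 cannot be called many or few. With 1 plate per culture and day, the differences between cultures were not tested. Slc2a1 was above day 1 in control by 3.32 on the log2 scale and below it with dexamethasone (-0.33), a difference of 3.66. Pfkm was below day 1 in control (-1.19) and above it with dexamethasone by 0.53, a difference of -1.72. Egln3 was below day 1 in control (-1.02) and above it with dexamethasone by 0.25, a difference of -1.27. Bnip3 was above day 1 in control by 3.00 and below it with dexamethasone (-0.16), a difference of 3.17. Vegfa, at most 6.57 CPM on any plate, was above day 1 in control by 1.22 and below it with dexamethasone (-0.32), a difference of 1.54. For Slc2a1, 4 of 93 cells held 50% or more of the control day 3 counts, and for Bnip3 2 of 93 cells did. The median control cell stood at 1.89 CPM of Bnip3 on day 1 and 1.73 CPM on day 3. For Slc2a1 it stood at 44 and 11.3 CPM, so for neither gene was the median control cell higher on day 3. For Egln3, cells with at least 2 myeloid markers held most of the cells with a count on control day 1 (19 of 23), and their part in the difference was not tested.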

How the results depend on the processing

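The edgeR test of all 20040 genes made no call, so each count of calls depends on the tool and the filter. For dexamethasone, DESeq2 called 1279 genes and 2 members, edgeR on genes of at least 50 CPM called 38 and 1, and edgeR on thinned cells called 1 gene and 0 members. For day 2 against day 1 the counts were 1550 genes and 19 members, 233 and 12, and 23 and 1 (P4ha1). For day 3 against day 1 they were 2112 and 13, 545 and 5, and 197 and 0. Why the settings differ was not tested, beyond the smaller number of genes tested at 50 CPM. The other settings gave 0 calls.

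Signs were checked for member differences of at least 0.3 in size on the log2 scale in the fit of all genes. Smaller differences were left out. Leaving out 1 plate turned the sign of 8 of those checked, none of them called, and the count over all differences may be larger. For dexamethasone the values ran from -1.73 to 0.12 for Slc2a1 (0.11 without the dexamethasone day 3 plate), from -0.33 to 1.48 for Aldoc (-0.30 without the dexamethasone day 1 plate) and from -1.42 to 0.19 for Bnip3 (0.17 without the dexamethasone day 3 plate). For day 2 against day 1 Egln3 ran from -0.54 to 1.73 (-0.38 without the dexamethasone day 1 plate). For day 3 against day 1 the values ran from -0.21 to 3.20 for Slc2a1, from -1.0 to 0.32 for Pfkm (0.30 without the control day 1 plate), from -1.39 to 0.72 for Egln3 and from -0.34 to 1.24 for Vegfa. With thinned cells Ldhb with dexamethasone was 0.23, and without cells that had myeloid markers Pfkfb4 on day 3 was -0.11. Thinning turned the share differences of Hk2 to 0.044 and of Ldhb to 0.002 percentage points. With union exon lengths, an alternative chosen after seeing the data, Pklr was -7.43 and Ldhb -0.114 percentage points. The cause was not tested. No paired analysis was possible because the numbers in the labels name wells of a plate, so the sums per plate carry none, and day is already a term of the test.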
